A study of Mus musculus with 3 samples.

Results

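Mitochondrial ribosomal proteins were examined in adult mouse hearts with and without *Lrrc10*, a leucine-rich repeat protein of heart muscle cells. The members were all genes whose name on the array begins with Mrpl or Mrps followed by a digit, which were 75 of 28631 named genes, read by 124 of 41174 gene probes. They were 46 genes of the large subunit (Mrpl, 75 probes) and 29 of the small subunit (Mrps, 49 probes). On each of 3 Agilent 2-colour arrays (replicates 1 to 3), RNA pooled from 2 Lrrc10-/- hearts carried Cy5 and RNA pooled from 2 Lrrc10+/+ (WT) hearts carried Cy3, by the labels. All mice were C57/BL6 at 2 months of age, without other treatment, and both groups were whole hearts, so a change in cell makeup and a change of RNA per cell cannot be told apart. The hearts came from littermates and the methods describe independent biological replicates, but the label calls the WT channel a reference pool. If 1 pool served several arrays, the spread between WT pools is missing from the errors.

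The mitochondrial ribosome translates the respiratory chain and ATP synthase proteins encoded in mitochondrial DNA. Its RNAs come from the mitochondrial genome, whereas all of its proteins are encoded in the nucleus, made in the cytosol and imported. Some of these proteins descend from bacterial ribosomal proteins and others joined the ribosome in the mitochondrial lineage, and the heart, which depends on oxidative phosphorylation, is affected in several human diseases of mitochondrial translation.

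The deleted gene was read first as a check of the labels. *Lrrc10* had a signal of 476, 443 and 352 in Cy3 on replicates 1, 2 and 3 and of 14283, 20828 and 17703 in Cy5. Its log2 ratio of Cy5 over Cy3 was thus 5.37 ± 0.41 (mean ± SD, n = 3 arrays), with the channel labelled Lrrc10-/- the brighter on all arrays. This goes against the labels, and directions are therefore given by channel throughout. *Nppa*, the gene of atrial natriuretic factor, had ratios of -0.89, -0.61 and -0.82 in its brightest probe and *Myh7*, the slow myosin heavy chain, had -2.14, -3.45 and -0.90 in its unsaturated probe, neither with a limma adjusted p under 0.05. With the labels taken as given, the direction of both is opposite to the one the study describes for Lrrc10-/- hearts. Whether the channels were exchanged was not tested. The median processed signal of the gene spots was 126 to 172 in Cy3 and 125 to 174 in Cy5. Of the 124 member probes, 119 were well above background on every array in both colours, and 1, a probe of *Mrpl33*, was saturated, in Cy5 on replicate 3.

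No mitochondrial ribosomal protein gene passed the test for a difference between the channels. Of the 124 probes, 121 reached the minimum mean signal of 20 and were tested, with at least 1 probe for each of the 75 genes. By limma, 0 of the 121 had an adjusted p under 0.05, beside 0.00676% of all 29576 tested probes. At an unadjusted p under 0.05 limma gave 1 of 121 member probes, where the share over all tested probes was 3.07%, and the methods' t-test gave 5 unadjusted, beside 4.21% of all, and 0 after adjustment. The selection of the study was read here as a ratio of at least 1.2 in the same direction with an array p under 0.05 on all 3 arrays, although the methods do not say which p was used. It took 0 of 121 member probes in either direction, beside 0.406% of all tested probes as brighter in Cy5 and 0.511% as brighter in Cy3. Other readings were added after the data were seen. The ratio alone took 1 of 121 member probes, a probe of *Mrpl49* brighter in Cy3, beside 1.71% of all tested probes in Cy5 and 1.95% in Cy3. With the unadjusted p of the methods' t-test the same probe was taken, beside 0.967% and 1.13%, and with the unadjusted limma p none was, beside 0.923% and 1.12%.

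The mean log2 ratios of the genes, read from the brightest probe of each, lay between -0.29 (*Mrpl24*) and 0.34 (*Mrpl43*), which is 1.22-fold brighter in Cy3 to 1.26-fold brighter in Cy5. For 60 of 75 genes the mean was within 0.2 of 0, beside 60.1% of all 20603 tested genes, and the 95% interval of limma included 0 for all 75, where it excluded 0 for 3.32% of all tested genes. The distance from the mean to either end of these intervals was 0.40 to 0.72 on the log2 scale, with a median of 0.45. The intervals are not adjusted for the number of probes tested. The adjusted test asks for more, so with 3 arrays differences beyond these distances could also go uncalled. In 5 of 75 genes the ratio was above 0 on all 3 arrays, where 9.47% of all tested genes were, and in 6 it was below 0 on all 3, where 12.2% were. The other 64 genes changed sign between arrays.

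With the deposited corrections, large and small subunit genes had medians over the mean of the arrays that were close to 0 and to each other. The median log2 ratio of the 46 large subunit genes was -0.16, 0.30 and -0.04 on replicates 1, 2 and 3, and that of the 29 small subunit genes was -0.09, 0.12 and -0.12. Over the mean of the arrays the medians were 0.01 and -0.02, beside -0.01 for all tested genes. The large subunit median exceeded the small subunit median by 0.19 on replicate 2 and by 0.07 on replicate 3 and was lower on replicate 1, with a difference of -0.07. The difference was 0.06 ± 0.13 (SD, n = 3 arrays), smaller than its spread. With normexp and loess in place of the deposited corrections it was 0.16 ± 0.07, above 0 on all 3 arrays, so this depended on the processing. Brighter in Cy5 on all arrays were 5 of 46 large subunit genes (10.9%) and 0 of 29 small subunit genes, beside 9.47% of all tested genes. By probes these were 11 of 73 and 1 of 48. Brighter in Cy3 on all arrays were 3 genes of each subunit (6.52% and 10.3%), beside 12.2% of all tested genes. When normexp background correction and centring of each array on its median together replaced the deposited background and dye correction, 55 genes were above 0 on all arrays and 0 below. The subunit medians over the mean of the arrays were then 0.50 (large) and 0.47 (small). The same change put 42.6% of all genes above 0 and 11% below, with a median shift of 0.15 over all probes.

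**Figure D1:**
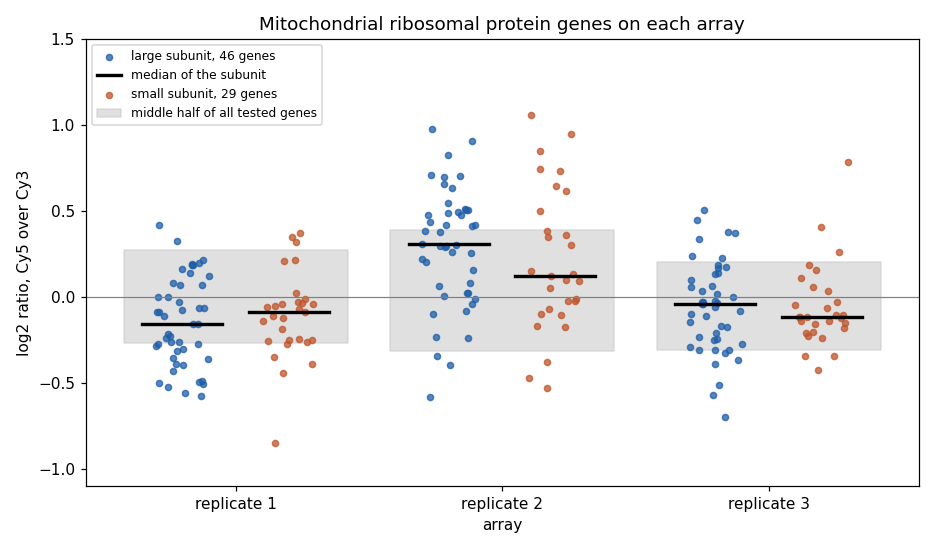
Log2 ratio of Cy5 over Cy3 (y axis) of the 46 large and 29 small subunit genes on each of the 3 arrays, 1 point per gene from its brightest probe, with black bars at the subunit medians and grey boxes from the lower to the upper quartile of all tested genes. Both subunits lie mostly above 0 on replicate 2, with medians of 0.30 and 0.12, and mostly below 0 on replicates 1 and 3.

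Most member genes were brighter in Cy3 on replicates 1 and 3 and in Cy5 on replicate 2. On replicate 2 this was carried by the brighter members, as described below. On replicate 2, 55 of 75 genes were brighter in Cy5 (73.3%, beside 52.7% of all tested genes), whereas 19 were on replicate 1 (25.3%, beside 50.3%) and 25 on replicate 3 (33.3%, beside 43.9%). The pattern of Cy3 on replicates 1 and 3 with Cy5 on replicate 2, which was chosen after the values were seen, was found in 34 genes, or 45.3%, beside 16.9% of all tested genes. An array p under 0.05 was given to 51 of 121 member probes on replicate 2 (42.1%, beside 37.5% of all tested probes), of which 44 were brighter in Cy5. On replicate 1 it was given to 19 (15.7%, beside 25.2%), of which 4 were brighter in Cy5, and on replicate 3 to 17 (14%, beside 28.6%), of which 12 were. The split of such probes by channel was not counted over all tested probes, so these directions have no share beside them. The median SD over arrays was 0.30 for the members and 0.37 for all tested genes. Without replicate 2, the genes below 0 on all remaining arrays were 40 of 75, beside 29.1% of all, and those above 0 were 9, beside 23.3%.

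Brightness separated the members on replicate 2. The 38 brighter genes, with mean signals of 9950 to 105000, had medians of -0.24, 0.45 and -0.08 on replicates 1, 2 and 3, and 35 of them were above 0 on replicate 2. Among the 1852 other genes in this signal range the medians were 0.01, 0.05 and 0.02, and 53.8% were above 0 on replicate 2. The 37 dimmer members had medians of -0.06, 0.02 and -0.10, with 20 above 0 on replicate 2, close to the 51.6% of other genes in their range. Across the 75 genes the replicate 2 ratio correlated with mean log2 signal at r = 0.57 and with probe GC content at r = -0.33, as a description of genes that share their libraries. Over all tested genes these correlations were -0.05 and -0.07.

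**Figure D2:**
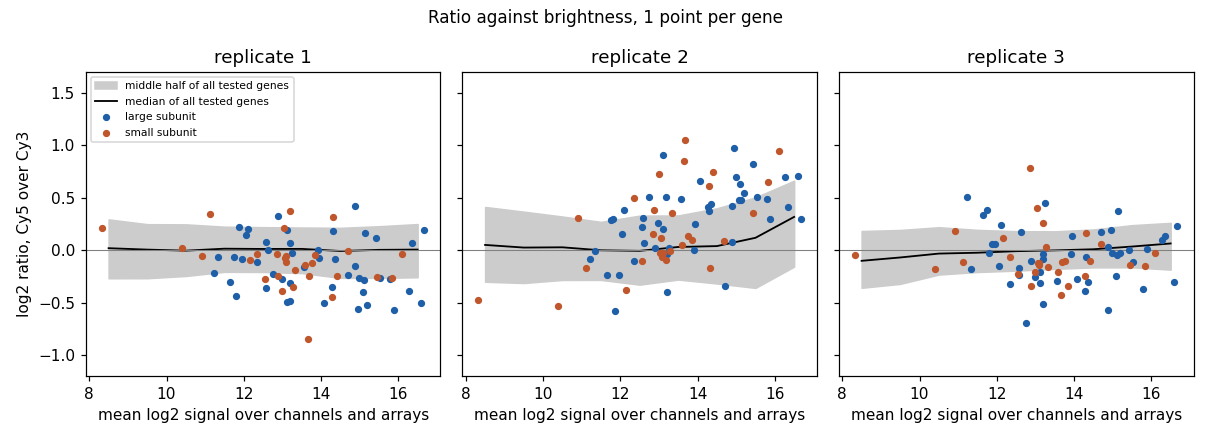
Log2 ratio of Cy5 over Cy3 (y axis) against the mean log2 processed signal over both channels and 3 arrays (x axis), 1 panel per array and 1 point per gene, with the median (line) and the range between quartiles (grey) of all tested genes in bins of 1 log2 unit. On replicate 2 the bright members lie above the median line, and 35 of the 38 brighter genes exceed 0.

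Different probes of a gene gave a similar array pattern in many cases. *Mrps18c*, one of 3 mitochondrial relatives of bacterial protein S18, has 2 probes with no shared run of over 6 bases. They are shown because their values coincided most closely at the widest swing, and each has a reading frame without a stop codon.
Mrps18c, brighter probe: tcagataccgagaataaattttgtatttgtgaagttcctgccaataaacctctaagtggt
Mrps18c, other probe: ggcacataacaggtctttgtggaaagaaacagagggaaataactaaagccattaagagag
The brighter probe had signals of 13622, 9826 and 13201 in Cy3 and of 11462, 20410 and 12182 in Cy5 on replicates 1, 2 and 3. Its log2 ratios were -0.25, 1.05 and -0.12, and those of the other probe were -0.34, 1.06 and -0.18. The Cy3 signal was lowest, and the Cy5 signal highest, on replicate 2. Without replicate 2 the mean of 0.23 ± 0.72 (SD, n = 3) became -0.18.

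*Mrps33*, a small subunit protein without a bacterial counterpart, followed the same course in 3 probes. It and *Mrpl18* lie outside the rule for named genes and were chosen after their values were seen, as genes whose probes ran together. Their log2 ratios were -0.04, -0.50 and -0.60 on replicate 1, 0.95, 0.93 and 0.95 on replicate 2, and -0.03, -0.13 and -0.25 on replicate 3, in order of brightness. Of these, 2 probes share 33 bases, in capitals in the one printed here, and are not independent readings, while the brightest shares no run of over 5 bases with either.
Mrps33, middle probe: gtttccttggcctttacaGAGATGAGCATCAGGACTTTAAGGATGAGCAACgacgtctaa
The 3 probes of *Mrpl18*, the relative of the 5S rRNA binding protein L18 of bacteria, ran together too, at 0.83, 0.69 and 0.60 on replicate 2, against values between -0.15 and 0.15 on replicates 1 and 3.

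Over the 30 genes with several probes well above background everywhere, the median SD between probes of a gene on an array was 0.18 and the median SD between arrays of the probe mean was 0.24. The spread between arrays was the larger in 15 of 30. Between the 2 brightest probes of these genes, the step from replicate 1 to replicate 2 correlated at r = 0.69 and the step from replicate 3 to replicate 2 at r = 0.77, across genes and as a description.

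**Figure D3:**
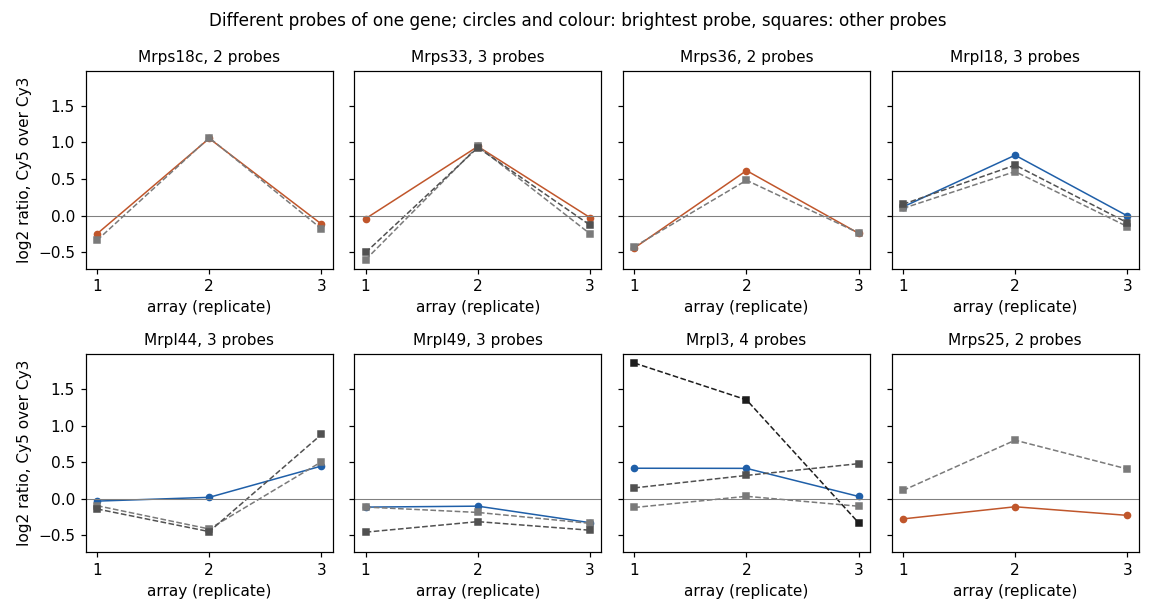
Log2 ratio of Cy5 over Cy3 (y axis) on replicates 1 to 3 (x axis) for each tested probe of 8 genes, with the brightest probe as coloured circles and the others as grey squares; lines join the values of a probe and carry no order in time. The probes of *Mrps18c*, *Mrps33*, *Mrps36* and *Mrpl18* run together with a peak on replicate 2, whereas those of *Mrpl3* and *Mrps25* lie apart.

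The genes brighter in Cy5 on all arrays were led by *Mrpl43*, a large subunit protein without a bacterial counterpart. Its signals were 31355, 38536 and 26918 in Cy3 and 35064, 53546 and 34805 in Cy5, so that Cy5 was above Cy3 on each array although the channel ranges overlapped. The log2 ratios of 0.16, 0.47 and 0.37 gave a mean of 0.34 ± 0.16 (SD, n = 3; limma adjusted p = 1.00), and the second probe gave 0.10. *Mrpl47*, counterpart of bacterial L29 at the polypeptide exit, had ratios of 0.20, 0.38 and 0.24 in one probe and 0.44, 0.37 and 0.03 in the other, with means of 0.27 and 0.28. With normexp and loess the mean of its brightest probe fell from 0.27 to 0.033. *Mrpl28* had ratios of 0.19, 0.29 and 0.23, the closest agreement between arrays among these genes (SD 0.05), although its second probe changed sign at -0.14, 0.14 and 0.33. The remaining gene was *Mrpl51*, outside the rule for named genes and chosen after its values were seen, at a mean of 0.21.

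*Mrpl3*, which lines the approach to the peptidyl transferase centre and is mutated in a human mitochondrial cardiomyopathy, depended on the probe. The brightest of 4 probes had ratios of 0.42, 0.42 and 0.03, a mean of 0.29 ± 0.22 (SD, n = 3; limma adjusted p = 1.00). A second probe, shown here because its ratio was also above 0 on all arrays, gave 0.15, 0.32 and 0.48.
Mrpl3, second probe above 0 on all arrays: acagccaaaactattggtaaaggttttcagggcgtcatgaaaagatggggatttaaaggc
Another gave -0.12, 0.03 and -0.10, at 13808, 18148 and 14904 in Cy3. The last, designed on a cDNA clone that carries no RefSeq accession, was dim, at 100, 180 and 349 in Cy3 and 360, 460 and 278 in Cy5. Its ratios were 1.86, 1.35 and -0.33, and it was the 1 member probe below 0.05 in the unadjusted limma test, with limma adjusted p = 1.00. Replicate 3 went the opposite way, and without it the mean rose from 0.96 to 1.60 with a limma adjusted p of 0.00036. That fit rested on 2 arrays and called 543 of all tested probes, where the fit with all arrays called 2.

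Brighter in Cy3 on all arrays were *Mrpl24*, *Mrpl49* and *Mrpl10* of the large subunit. *Mrpl24*, a counterpart of the bacterial assembly initiator L24, had ratios of -0.31, -0.04 and -0.51, a mean of -0.29 ± 0.24 (SD, n = 3; limma adjusted p = 1.00). The mean of *Mrpl24* was -0.042 with normexp and loess and 0.39 with normexp and median centring. *Mrpl49*, without a bacterial counterpart, was the most uniform, with every one of its 3 probes below 0 on every array. Its brightest probe had signals of 4538, 6379 and 5872 in Cy3 and 4195, 5951 and 4684 in Cy5, which is a ratio of -0.11, -0.10 and -0.33. The other 2 had means of -0.21 and -0.40, the second at -0.46, -0.31 and -0.43 with an unadjusted limma p of 0.054 and a limma adjusted p of 1.00. *Mrpl10*, the base of the ribosomal stalk, was near 0 at -0.06, -0.01 and -0.18.

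In the small subunit, *Mrps25*, *Mrps35* and *Mrps15* were below 0 on all arrays and none was above 0 on all. *Mrps25* and *Mrps35* belong to the proteins without a bacterial counterpart, and *Mrps15* is the counterpart of bacterial S15. *Mrps25* had ratios of -0.27, -0.11 and -0.23 (mean -0.20 ± 0.09, SD, n = 3), but its second probe, with signals of 114 to 227, was above 0 on all arrays at 0.11, 0.80 and 0.41. *Mrps35* had a mean of -0.11 ± 0.04 and *Mrps15* one of -0.07 ± 0.05. These means were small beside the 95% intervals, that of *Mrps35* running from -0.51 to 0.29.

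**Figure D4:**
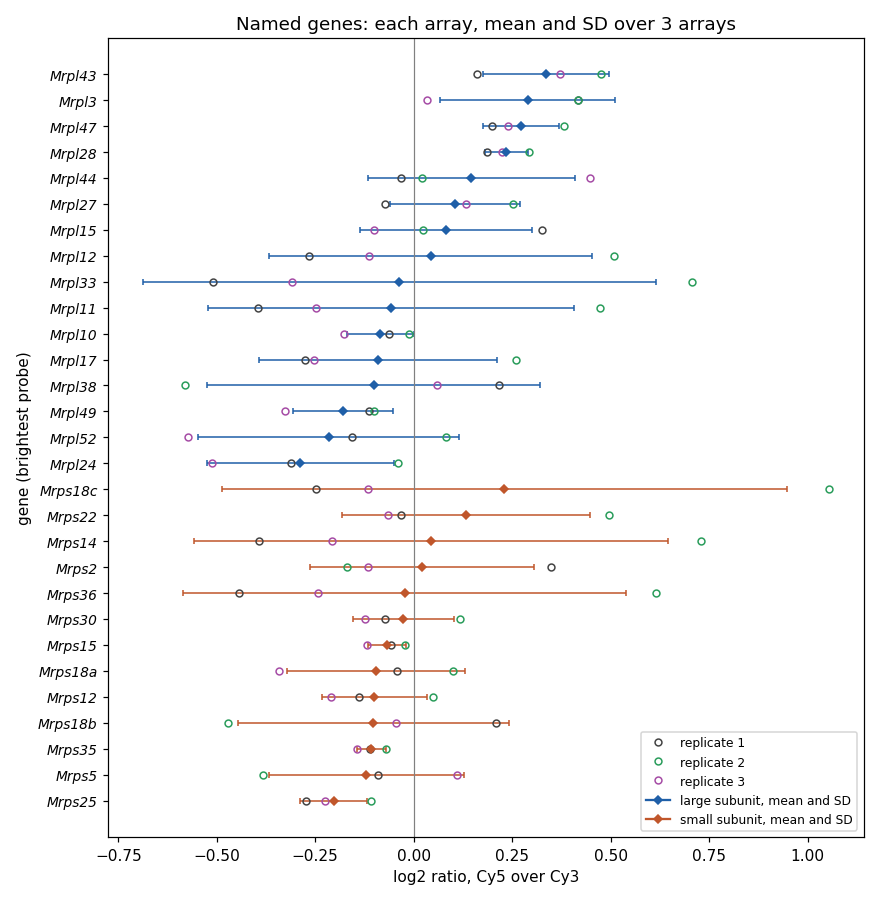
Log2 ratio of Cy5 over Cy3 (x axis) of the 29 named genes (y axis), each by its brightest probe: open circles are the 3 arrays, diamonds the mean, and bars 1 SD to either side, blue for the large and orange for the small subunit. Only the 10 genes named for a constant sign have all circles on one side of 0, and *Mrps18c*, with 1.05 on replicate 2, spans the widest range.

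Of the genes tied to human mitochondrial cardiomyopathy, *Mrpl44*, *Mrps14* and *Mrps22* changed sign between arrays. *Mrpl44*, a large subunit protein of the ribonuclease III family, had ratios of -0.03, 0.02 and 0.45 by its brightest probe. Its other probes gave -0.09, -0.41 and 0.51, and -0.14, -0.45 and 0.88, so all 3 were highest on replicate 3, whereas the median of the members was highest on replicate 2. *Mrps14* of the small subunit head had ratios of -0.39, 0.73 and -0.21 (mean 0.04 ± 0.60, SD, n = 3), and *Mrps22*, without a bacterial counterpart, had -0.03, 0.50 and -0.06 (mean 0.13 ± 0.32). None passed the test (limma adjusted p = 1.00 each).

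The stalk proteins that recruit translation factors had different patterns over the arrays. *Mrpl11* had ratios of -0.40, 0.47 and -0.25 and *Mrpl12* had -0.27, 0.51 and -0.11, both with their Cy5 maximum on replicate 2, at 43900 and 63153, whereas *Mrpl10* stayed within 0.18 of 0. *Mrps12*, at the decoding site, had -0.14, 0.05 and -0.21, and *Mrpl27*, a neighbour of the peptidyl transferase centre, had -0.07, 0.25 and 0.13. *Mrps12* was thus in Cy3 on 2 of 3 arrays and *Mrpl27* in Cy5 on 2 of 3.

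The S18 relatives, which occupy different places on the ribosome, differed from one another on replicate 2. *Mrps18a*, whose product is a large subunit protein despite its symbol, had ratios of -0.04, 0.10 and -0.34. *Mrps18b* had 0.21, -0.47 and -0.05 at signals of 205 to 449, and *Mrps18c* was described above at 1.05 on that array. *Mrps30*, also a large subunit protein by structure, had -0.07, 0.12 and -0.12. *Mrps36*, now known as a subunit of the 2-oxoglutarate dehydrogenase complex, had -0.44, 0.62 and -0.24, and its second probe had -0.43, 0.48 and -0.24, so it followed the bright ribosomal proteins. Counting *Mrps30* and *Mrps18a* with the large subunit and leaving out *Mrps36* left the mean of the array differences between subunits at 0.07, whereas the medians over the mean of the arrays were then 0.0039 (large) and 0.012 (small), in the opposite order.

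Probes of 11 genes disagreed in the sign of their mean. In *Mrpl17* the bright probe, at 8049, 8162 and 8948 in Cy3, gave -0.28, 0.26 and -0.25, and the dim one, at 75.1, 137 and 83.9, gave 0.57, 0.005 and 0.48. *Mrpl52*, *Mrps15* and *Mrps25* likewise paired a bright probe with a far dimmer one. *Mrpl38* differed within replicate 2, where its probes gave -0.58 and -0.50 against 0.46 in the dimmest. The others were *Mrpl3*, *Mrpl15*, *Mrpl33*, *Mrpl44*, *Mrps2* and *Mrps5*, with means within 0.2 of 0 in all of their probes apart from the *Mrpl3* probes. The second probe of *Mrpl41* was not well above background in Cy3 on any array, and no fold is given for it. Single probes of *Mrps18b*, *Mrpl52* and *Mrpl27*, at 3.8 to 19 signal units, were the 3 not tested.

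Genes were also set apart by descent. Those with a bacterial counterpart (30 large, 18 small) had medians of the mean log2 ratio of 0.02 and -0.01, and genes without one (16 large, 11 small) had 0.00 and -0.02. On replicate 2 the 48 genes with a counterpart stood 0.19 above the 27 without, and on replicates 1 and 3 they stood below, with differences of -0.09 and -0.07. The difference over the arrays was 0.01 ± 0.16 (SD, n = 3).

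Other genes of mitochondrial translation were read from lists chosen with earlier results of these data known. None of the 65 genes was called by limma (0 at an adjusted and 0 at an unadjusted p under 0.05) or by the methods' t-test (0 and 0), and 1 was above 0 (beside 9.47% of all tested genes) and 6 were below 0 (beside 12.2%) on all arrays. The 19 aminoacyl-tRNA synthetases, which charge the tRNAs and of which *Gars* and *Kars* also serve the cytosol, had medians of 0.23, -0.33 and 0.10. The median thus had the opposite sign to that of the members on each array, with the members lower by 0.34 on replicate 1, higher by 0.62 on replicate 2 and lower by 0.20 on replicate 3. Examples with the signs of that median and wide swings are *Aars2* at 0.31, -0.79 and 0.38 and *Mars2* at 0.34, -0.75 and 0.37. Other genes of the list did not have these signs. *Kars* and *Ears2* were below 0 on all arrays, and *Hars2*, *Lars2* and *Wars2* were above 0 on replicate 2. *Lars2* had the widest swing of the list, at -2.61, 0.28 and 2.18. The 13 translation factors had medians of -0.01, -0.26 and -0.02, with the elongation factor *Tufm* at 0.03, -0.81 and -0.23 and *Gfm1* at 0.53, -0.61 and 0.73.

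The 18 genes of ribosome assembly and rRNA modification had medians of -0.08, 0.06 and 0.11, and the 8 genes of mitochondrial transcription and RNA stability had 0.11, 0.12 and 0.05. Within the latter, *Slirp*, an RNA-binding partner of *Lrpprc*, had -0.82, 1.03 and -0.54, while *Lrpprc* itself had 0.24, -0.77 and -0.04. Mitochondrial ribosomal proteins under other symbols (7 genes, among them *Mrpl57*, which the array lists as *Mrp63*) had -0.01, 0.21 and -0.19. The cytosolic ribosomal proteins moved the same way as the members on each array and further, with medians of -0.30, 0.63 and -0.21 over 49 genes without saturated probes. Those of 29 unsaturated nuclear genes of the respiratory chain and ATP synthase were -0.07, 0.24 and -0.005. Medians over the mean of the arrays were 0.05 for both of these selections. Over all 84 cytosolic ribosomal protein genes, 35 of them with saturated probes, the medians were -0.40, 0.51 and -0.32, and -0.04 over the mean of the arrays. Over all 80 respiratory chain and ATP synthase genes, 51 of them saturated, they were -0.32, 0.09 and -0.19, and -0.07 over the mean of the arrays. The sign of that last median thus turned with the leaving out of saturated probes in both lists. No test between lists was made.

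**Figure D5:**
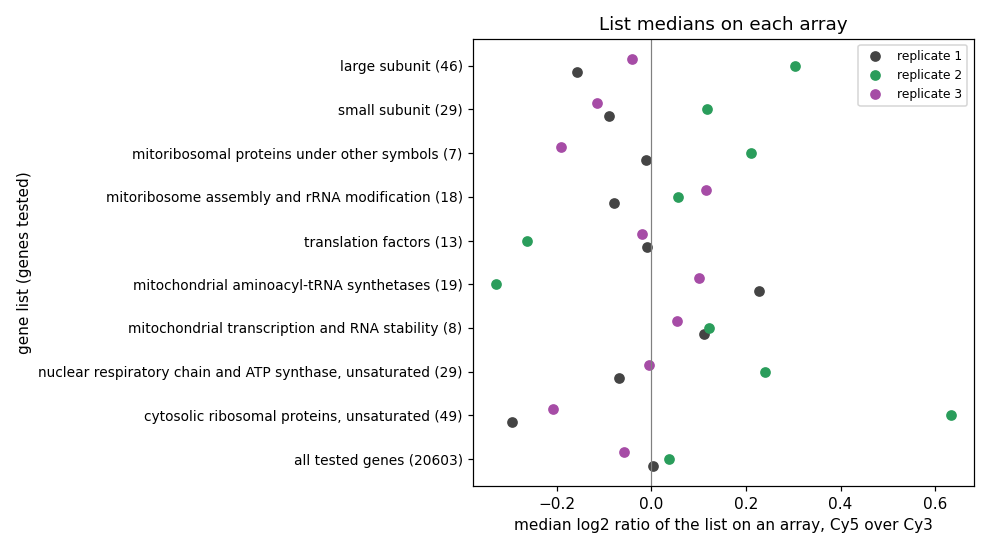
Median log2 ratio of Cy5 over Cy3 of each gene list (x axis) on the 3 arrays, 1 coloured point per array, with the number of genes tested in parentheses. Replicate 2 (green) is the highest array for both subunits and for cytosolic ribosomal proteins, at 0.63, and the lowest for the translation factors and the aminoacyl-tRNA synthetases, at -0.26 and -0.33.

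Markers of other tissue also differed between arrays, in ways that were not the same for each list. The atrial markers (4 of 5 listed were tested, without *Bmp10*) had 3 of 4 above 0 there, with *Sln* at 3.69, *Myl7* at 3.41 and *Myl4* at 1.41 against *Nppa* at -0.61, which was below 0 on all arrays. On replicates 1 and 3, 1 of 4 was above 0, and *Myl7* was at -0.21 and -1.27. On replicate 2 the signal of *Sln* was 97.9 in Cy3 and 1264 in Cy5 and that of *Myl7* was 285 and 3021, and no tested marker was at 0. The summed signal of the 4 ranged from 76800 to 121000 in Cy3 and from 43600 to 84100 in Cy5, most of it *Nppa*, at 76212 to 120046 in Cy3 and 43095 to 78442 in Cy5. The 8 cardiomyocyte markers were detected in both channels of all arrays and had medians of -0.16, -0.48 and -0.21, but 7 of the 8 had saturated probes, so that these medians are limited by saturation. The 4 endothelial markers had 0.19, -0.48 and -0.17, the 4 fibroblast markers 0.34, -0.36 and -0.13, and the 4 leukocyte markers -0.10, 0.26 and -0.20. The 4 red blood cell markers had 0.54, 0.78 and -0.17, and 5 skeletal muscle markers had 0.17, 0.32 and -0.25. Saturated probes were also present in 2 of the red blood cell, 1 of the skeletal muscle and 1 of the leukocyte markers. The 5 fat markers tested (without *Ucp1*) summed to 21700 to 32600 in Cy3 and 18700 to 30500 in Cy5. Their medians were 0.46, -0.28 and -0.95, farthest apart between replicates 1 and 3. Only 2 of the 5 were well above background throughout. The medians on replicates 1 and 3 were the values of *Retn*, with signals of 19.7 to 32.8 in Cy3 and 17.0 to 27.0 in Cy5. These signals are near the minimum of 20, as were those of *Plin1*, at 18.9 to 42.1 and 17.5 to 25.9. A difference in fat between arrays therefore cannot be read from these medians. *Cfd* was at 2.26, -0.28 and -1.91 and *Adipoq* at 1.52, -0.72 and -1.52, both dim, while the sum was nearly all *Cidea*, at 21573 to 32255 in Cy3, with ratios of -0.23, -0.09 and -0.34. The part of these in the ratios of the members was not tested.

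The promoters of the members were searched for short motifs, since most members lay on the same side of 0 within an array. RefSeq promoter windows (GRCm38.p6, 250 bases before to 50 after the start) were matched by symbol for 66 of 75 genes, in 72 windows. The ETS-type core CCGGAAG, read by GABP among others, was present on either strand in 24 of 72 (33.3%), beside 8.86% of all 32851 windows and 11.6% of those of protein-coding genes. The core GCATGCGC of the respiratory factor NRF1 was present in 11.1%, beside 2.71% and 3.51%, and the YY1 core AAGATGGCG in 9.72%, beside 1.4% and 1.83%. The GC box GGGCGG differed less, at 51.4% beside 35.7% and 46.2%. By subunit (45 large and 27 small windows) the GC box was in 42.2% and 66.7%, and the ETS core in 28.9% and 40.7%. The NRF1 core was in 15.6% and 3.7%, the latter 1 window, and the YY1 core in 6.67% and 14.8%. No motif contains another, although the ETS and YY1 cores can share the letters AAG, and a match is a description of the window, not a binding site. The ETS and the NRF1 core were together in the windows of 4 members, *Mrpl17*, *Mrpl22*, *Mrpl33* and *Mrps18b*. Those with both cores in the 250 bases before the start, *Mrpl17* and *Mrpl22*, are shown to that start, with the cores in capitals, as examples of the motifs side by side.
Mrpl17, chr7:105811088-105811337, minus strand: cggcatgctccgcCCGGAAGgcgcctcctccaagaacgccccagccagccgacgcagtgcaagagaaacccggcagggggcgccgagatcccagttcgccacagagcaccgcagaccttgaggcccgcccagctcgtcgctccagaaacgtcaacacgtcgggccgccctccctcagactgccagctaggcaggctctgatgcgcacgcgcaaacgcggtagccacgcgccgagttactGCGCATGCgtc
Mrpl22, chr11:58171414-58171663, plus strand: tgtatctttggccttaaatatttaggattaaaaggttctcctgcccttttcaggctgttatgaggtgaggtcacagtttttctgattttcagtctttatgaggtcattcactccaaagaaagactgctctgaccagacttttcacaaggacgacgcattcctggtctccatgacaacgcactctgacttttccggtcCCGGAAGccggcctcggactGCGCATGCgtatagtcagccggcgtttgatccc
The ratios of genes with and without the ETS core lay close together. The 24 member genes with an ETS core had medians of -0.07, 0.36 and -0.09 on replicates 1, 2 and 3, and the 42 with a window and no such core had -0.20, 0.29 and -0.07, with 0.01 for both over the mean of the arrays.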

How the data were processed

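RNA of adult hearts was compared on 3 Agilent 4x44K 2-colour arrays. For each array the authors deposited a table made with Agilent Feature Extraction 9.1.3.1, which holds processed signal intensities with local background subtracted, trends removed and dyes normalized within the array, log10 ratios of Cy5 over Cy3, and a p-value for the ratio of each spot. A deposited table of log10 ratios, equal to these apart from 1 missing value, served as an alternative. The array files name no genome build.

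Ratios were put on the log2 scale, outlier spots were left out (none of a member) and spots sharing a probe were averaged. Probes with a mean signal of at least 20 were fitted with limma 3.58.1 in R 4.3.3 (eBayes with intensity trend, two-sided, Benjamini-Hochberg over 29576 probes), which was tested on simulated data. All 3 arrays formed 1 group, each pool of hearts being 1 replicate. The brightest probe stood for a gene. Of 124 member probes, 109 matched RefSeq by accession, all with the same symbol. A further 5 probes of 3 genes carry Mrpl symbols in RefSeq but not on the array and were not members. The members and lists were chosen with earlier results of these data known.

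Named genes were member probes called by limma or by the study's selection, up to 4 genes per subunit and direction with the largest mean among those of constant sign, cardiomyopathy, stalk, decoding-site and S18 genes, *Mrpl27*, *Mrps30*, *Mrps36*, genes whose probes disagreed in sign, and *Lrrc10*. *Nppa* and *Myh7* were set beside *Lrrc10* after the data were seen. Alternatives were normexp (offset 50) with loess or median centring, other signal filters, saturated probes left out, the deposited table, the mean over probes, limma without trend, the methods' t-test and each replicate left out. The study's selection was read as needing the array p on every array, which its methods leave unstated, and readings with no p, the limma p or the t-test p were added after seeing the data. The number of arrays limits the precision. Marker lists were cardiomyocyte, atrial, skeletal muscle, fat, red blood cell, endothelium, fibroblast and leukocyte. Sequences came from the array files and RefSeq.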

Additional observations from a re-analysis of the deposited data

How the results depend on the processing

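Among the 29 named genes, each by its brightest probe, the alternatives without a signal minimum, with probes well above background only and with the deposited ratio table changed no direction, and no alternative gave a limma adjusted p under 0.05 (lowest 0.069). With normexp and loess, the genes above 0 on all arrays were 16 in place of 5, beside 16.1% of all genes, those below 0 were 5 in place of 6, beside 16.5%, and the sign turned for *Mrpl10* (0.076), *Mrpl33* (0.11), *Mrps15* (0.11), *Mrps18b* (0.096), *Mrps2* (-0.16), *Mrps22* (-0.12), *Mrps30* (0.069) and *Mrps36* (0.023). With normexp and median centring, which makes no correction for brightness, 55 genes were above 0 on all arrays and 0 below, the subunit medians rose to 0.50 (large) and 0.47 (small), and the sign turned for *Mrpl10* (0.46), *Mrpl11* (0.33), *Mrpl17* (0.19), *Mrpl24* (0.39), *Mrpl33* (0.58), *Mrpl38* (0.20), *Mrpl52* (0.45), *Mrps12* (0.17), *Mrps15* (0.54), *Mrps18a* (0.39), *Mrps18b* (0.29), *Mrps30* (0.50), *Mrps35* (0.14), *Mrps36* (0.47) and *Mrps5* (0.059). The cause was not tested. Leaving out saturated probes turned *Mrpl33* (0.026), since another probe then stood for it. The mean over the probes of a gene put 9 genes above 0 on all arrays, beside 9.55% of all genes, and 4 below, beside 11.6%.

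With 1 array left out, 9 to 15 genes were above 0 on the remaining arrays, beside 20.8% to 24.5% of all genes, and 10 to 40 were below 0, beside 21.5% to 29.1%. The study's selection, as read here and asked of the remaining arrays, took 1 to 3 of 121 member probes. These were 1 without replicate 1 (*Mrpl52*), beside 3.73% of all tested probes, 3 without replicate 2 (*Mrpl17*, *Mrpl49* and *Mrps21*), beside 4.09%, and 2 without replicate 3 (both *Mrpl3*), beside 6.19%. With all arrays, the readings added after seeing the data took 1 (*Mrpl49*) by the ratio alone, 1 with the methods' t-test and 0 with limma. With an array left out, limma called 0 to 1, the dim *Mrpl3* probe without replicate 3, where it called 543 probes in all. The means of these genes ranged over 0 with an array left out: *Mrpl11* from -0.32 to 0.11, *Mrpl12* from -0.19 to 0.20, *Mrpl15* from -0.039 to 0.17, *Mrpl17* from -0.27 to 0.0026, *Mrpl33* from -0.41 to 0.20, *Mrpl38* from -0.26 to 0.14, *Mrpl44* from -0.0054 to 0.23, *Mrps14* from -0.30 to 0.26, *Mrps18a* from -0.19 to 0.028, *Mrps18b* from -0.26 to 0.081, *Mrps18c* from -0.18 to 0.47, *Mrps2* from -0.14 to 0.12, *Mrps22* from -0.049 to 0.23, *Mrps30* from -0.098 to 0.023, *Mrps36* from -0.34 to 0.19 and *Mrps5* from -0.24 to 0.010.

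The mean of the array differences between the subunits stayed above 0 under the alternatives run, at 0.0034 to 0.16. It was 0.16 ± 0.07 (SD, n = 3 arrays) with normexp and loess, 0.15 ± 0.08 with normexp and median centring and 0.10 ± 0.08 with the mean over probes, and in each of these the large subunit median was the higher on all 3 arrays. The order of the subunit medians over the mean of the arrays turned with the mean over probes (large 0.032, small 0.037), without replicate 2 (-0.13 and -0.11) and with *Mrps30* and *Mrps18a* moved (0.0039 and 0.012). The ratio of an array is itself a paired comparison of its pools, so no replicate block was added. Without a dye swap, dye and genotype cannot be told apart, and the slide and scan that all arrays share could not be compared with others.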
